A study of Rattus norvegicus with 6 samples.

Results

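The genes described here are 10 genes of the NRF2 antioxidant response and of iron handling: Nfe2l2, Keap1, Nqo1, Hmox1, Gclc, Gclm, Txnrd1, Srxn1, Fth1 and Tfrc. They were taken by symbol from the deposited count table, where each symbol had 1 row, and they are 10 of its 18718 genes. RNA had been sequenced from HEI-OC1 cells, a permanent line of auditory cells that was established from the organ of Corti, in 2 groups of 3 libraries each. The siHNRNPD libraries (titled SiHNRNPD) came from cells in which AUF1, the protein made from Hnrnpd, was knocked down with an siRNA. The siNC libraries (titled SiNC) came from control cells, which the labels call Control. The labels give no siRNA sequence, dose or time after transfection, and they do not say whether replicates were separate cultures, so p-values measure only the spread between these libraries.

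AUF1 binds mRNAs at AU-rich elements and can speed or slow their decay. NRF2, encoded by Nfe2l2, is a transcription factor that KEAP1 holds at a low level by directing it to degradation. Oxidants and electrophiles disable KEAP1, and NRF2 then pairs with small MAF proteins on antioxidant response elements and activates genes for glutathione, thioredoxin and quinone metabolism. Iron handling meets this response through haem oxygenase, which frees iron from haem, and through ferritin, which stores it. Iron regulatory proteins block ferritin translation and stabilise the mRNA of the transferrin receptor when iron is scarce. In the cochlea, these pathways are studied for their part in protection against noise and ototoxic drugs.

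Short stretches that match the core of such an element are shown, because NRF2 acts on its target genes through such elements. RefSeq promoter windows of the rat assembly GRCr8, from 250 bases before to 50 bases after the gene start, were held for 8 of the 10 genes, in 9 windows. Hmox1 and Fth1 had none. The core of the antioxidant response element was searched as TGACNNNGC on both strands, where N is any base. It was present for 3 of the 8 genes, and in 12.1% of all 33469 windows. The capitals mark the match, and each line is read along the strand of its gene, so that GCNNNGTCA is the core on the opposite strand. The Nfe2l2 match begins at base 39 after the gene start, close to the end of the window, so its stretch is shorter.
Gclm, chr2:213031953-213031981, plus strand: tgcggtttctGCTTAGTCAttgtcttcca
Txnrd1, chr7:22755964-22755992, minus strand: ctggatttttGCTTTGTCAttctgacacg
Nfe2l2, chr3:81028950-81028971, minus strand: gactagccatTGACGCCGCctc
Srxn1 had no exact match to that core and 2 matches to TGANTCA, a form bound by AP-1 factors, which 7.33% of all windows held. The match nearest the start of Srxn1 is shown because this gene was the member with groups apart. This match is followed by GC, so it differs from the searched core only in a G where that core has C. The search thus does not show that Srxn1 lacks an antioxidant response element.
Srxn1, chr3:161064797-161064823, plus strand: aaactcacccTGAGTCAgcgacccgac
These are rat sequences, matching the organism in the labels, although the HEI-OC1 line was derived from mice. Which species the reads came from was not tested. A match describes letters in a window and is not evidence of binding.

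The libraries held 28984535 to 35842904 counts. Hnrnpd, the siRNA target, had 177, 200.2 and 183 CPM (counts scaled to library size, with TMM factors) in the siHNRNPD libraries, against 319, 303 and 269 CPM in the siNC libraries. The siHNRNPD mean was 62.8% of the siNC mean, so the knockdown was partial, and the log2 change of -0.67 passed the test (quasi-likelihood test of edgeR, p adjusted after Benjamini-Hochberg over 12268 genes = 0.0426). That call is lost when any 1 of 5 libraries is left out, as detailed further on. Of 12 hair cell markers, 8 had a row, and 4 of those (Gfi1, Slc26a5, Otof and Espn) had at most 10 counts in every library. Markers without a row have no level here. Myo6 had the most counts and was the 1 hair cell marker with at least 100 in every library. It had 31.5 to 37.0 CPM in siHNRNPD and 33.1 to 41.2 CPM in siNC. Of 12 fibroblast and mesenchymal markers, 8 had at least 100 counts in every library, among them Vim and Col1a1, and 3 had at most 10. The summed level of that list, mostly Vim, Col1a1 and Fn1, was 8398 to 10330 CPM in siHNRNPD and 8312 to 8945 CPM in siNC. For 9 macrophage markers, mostly Cd14, it was 69.9 to 73.0 CPM in siHNRNPD and 61.4 to 66.5 CPM in siNC. For 8 supporting cell and prosensory markers it was 36.5 to 41.6 CPM in siHNRNPD and 35.4 to 39.6 CPM in siNC. Library siHNRNPD 3 stood apart in interferon-stimulated genes: over 20 such genes the mean log2 level relative to the siNC mean was -0.61, -0.46 and -1.93 in siHNRNPD 1, 2 and 3, against -0.17, 0.19 and -0.025 in siNC 1, 2 and 3.

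None of the 10 genes changed beyond the threshold with Hnrnpd reduced. By edgeR 0 of 10 were called at an adjusted p under 0.05, against 0.0815% of all tested genes (10 of 12268), and DESeq2 also called 0, against 1.41% of its genes. At an unadjusted p under 0.05 there was 1 member, Srxn1, against 11.0% of all tested genes, so the share of members was near the background. All 10 genes passed the filter on low counts, with 250 to 230497 counts per library. Of the log2 changes, 5 were positive and 5 negative, with a median of 0.0027, against 0.0054 over all tested genes. The median size of a change, without its sign, was 0.068 against 0.10 over all tested genes. The 95% intervals of the fold change lay within 1.5-fold in either direction for 9 genes, and within 1.3-fold for 7. Tfrc was the gene whose interval was wider, from 0.653-fold to 1.28-fold. These are bulk values, in which fewer cells with an mRNA and less of it per cell cannot be told apart. A p above the threshold does not show that levels were equal, and changes inside these intervals were not resolved.

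**Figure D1:**
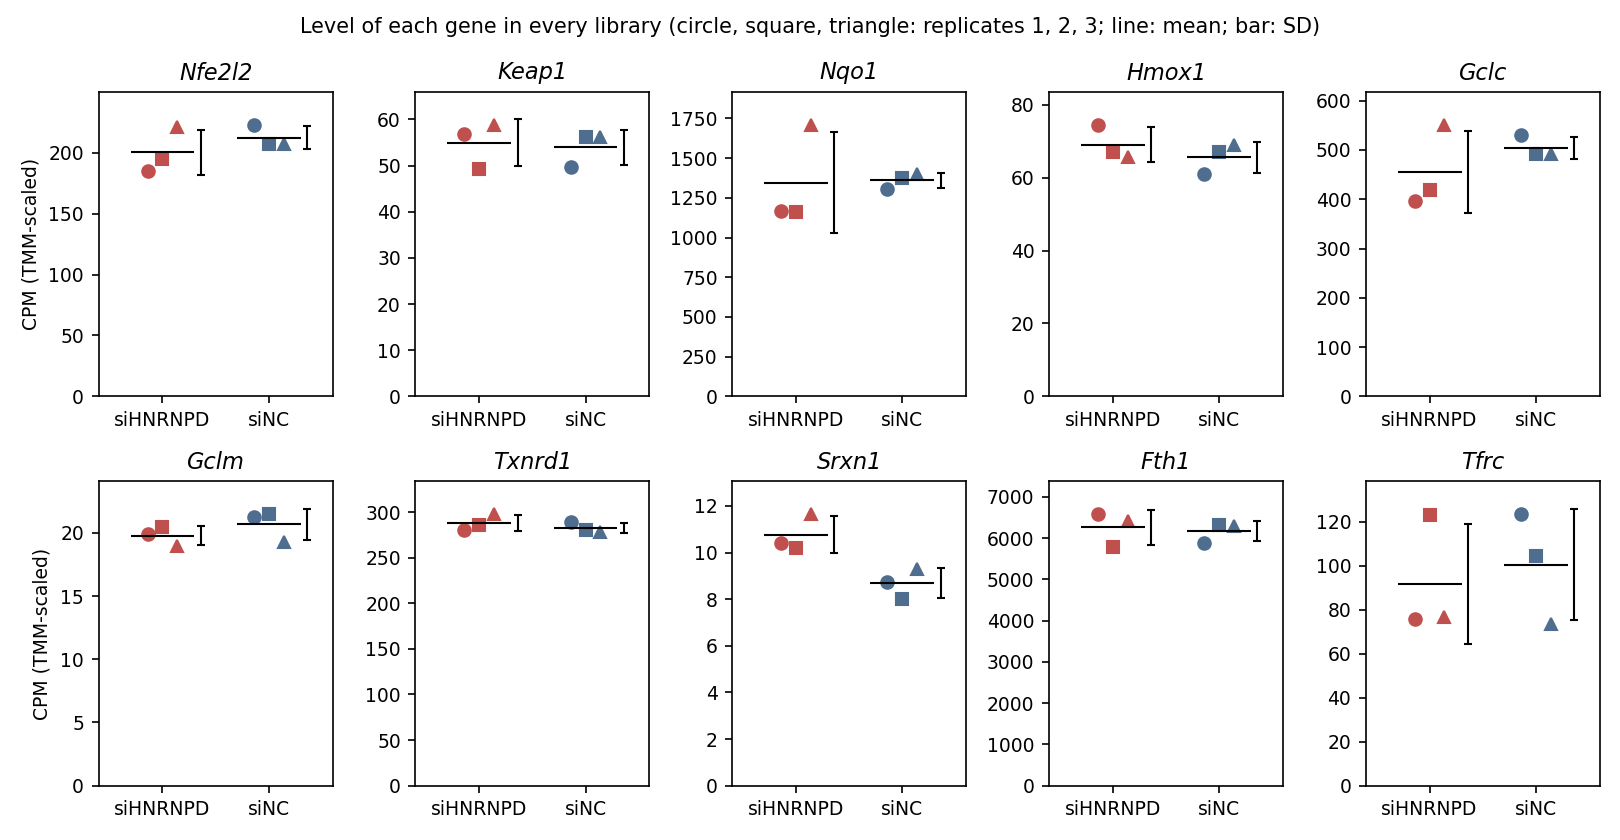
Level of the 10 genes in each library, in CPM after TMM scaling, with a separate linear axis from 0 for each gene. Circles, squares and triangles are replicates 1, 2 and 3, lines are group means and bars are SDs (n = 3 each). The groups are apart in Srxn1, and in Nqo1 and Gclc the triangle of siHNRNPD 3 lies above the other siHNRNPD libraries.

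The factor and its repressor came first. Nfe2l2 (ENSRNOG00000001548, chromosome 3), encoding NRF2, had 185, 195 and 221 CPM in siHNRNPD 1, 2 and 3, against 223, 207 and 207 CPM in siNC 1, 2 and 3. Library siHNRNPD 3 lay inside the siNC range, while siHNRNPD 1 and 2 lay below all siNC libraries. The log2 change was -0.084, SE 0.080 (edgeR adjusted p = 0.740). Keap1 (ENSRNOG00000020878, chromosome 8), the adaptor that brings NRF2 to a ubiquitin ligase, had 56.8, 49.3 and 58.9 CPM in siHNRNPD 1, 2 and 3, against 49.6, 56.2 and 56.2 CPM in siNC 1, 2 and 3. The ranges overlapped almost wholly, with a log2 change of 0.026 and an SE of 0.087 (edgeR adjusted p = 0.937). The log2 ratio of Nfe2l2 to Keap1 counts, which does not depend on scaling between libraries, was 1.86 ± 0.14 in siHNRNPD and 1.98 ± 0.17 in siNC (SD, n = 3 each). The difference of -0.11 did not exceed the spread (exact two-sided permutation test, p = 0.6, adjusted over 3 ratios p = 0.8). With 3 libraries against 3 that test cannot give a p under 0.1.

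The quinone and haem enzymes differed in how their libraries spread. Nqo1 (ENSRNOG00000012772, chromosome 19), which reduces quinones and is a widely used readout of NRF2, had 1165, 1158 and 1711 CPM in siHNRNPD 1, 2 and 3, against 1308, 1374 and 1401 CPM in siNC 1, 2 and 3. The siNC libraries lay close together, siHNRNPD 1 and 2 lay below all of them, and siHNRNPD 3 lay above all of them. The means were 1345 ± 317 CPM in siHNRNPD and 1361 ± 47.8 CPM in siNC (SD, n = 3 each), with a log2 change of -0.018 and an SE of 0.14 (edgeR adjusted p = 0.977). Hmox1 (ENSRNOG00000014117, chromosome 19), the inducible haem oxygenase that frees iron from haem, had 74.6, 67.1 and 65.6 CPM in siHNRNPD 1, 2 and 3, against 60.9, 67.0 and 69.0 CPM in siNC 1, 2 and 3. The groups overlapped, with siHNRNPD 1 highest and siNC 1 lowest. Its log2 change was 0.074 with a 95% interval of -0.10 to 0.25 (edgeR adjusted p = 0.776).

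Glutamate-cysteine ligase makes the first product of glutathione synthesis and has a catalytic and a modifier subunit. The catalytic subunit Gclc (ENSRNOG00000006302, chromosome 8) had 397, 420 and 552 CPM in siHNRNPD 1, 2 and 3, against 530, 491 and 491 CPM in siNC 1, 2 and 3. As in Nqo1, siHNRNPD 1 and 2 lay below and siHNRNPD 3 above all siNC libraries. The log2 change was -0.14, SE 0.12 (edgeR adjusted p = 0.680). The modifier subunit Gclm (ENSRNOG00000013409, chromosome 2), whose promoter stretch is shown above, had 19.9, 20.5 and 19.0 CPM in siHNRNPD 1, 2 and 3, against 21.3, 21.5 and 19.3 CPM in siNC 1, 2 and 3. It did not share the split of Gclc: siHNRNPD 3 was the lowest library, with a log2 change of -0.063 and an SE of 0.084 (edgeR adjusted p = 0.824). The log2 ratio of Gclm to Gclc counts was -4.32, -4.36 and -4.86 in siHNRNPD 1, 2 and 3, against -4.64, -4.51 and -4.67 in siNC 1, 2 and 3. The groups overlapped through siHNRNPD 3 alone (exact two-sided permutation test, p = 0.7, adjusted p = 0.8). Without it the difference was 0.27 with an exact permutation p of 0.1, the smallest that 2 libraries against 3 can give. That library was left out because it alone made the groups overlap, so the choice fixed this p. Leaving out any other library gave differences of -0.0020 to 0.14, with exact permutation p of 0.5 or more.

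The thioredoxin enzymes held the steadiest member and the one with the largest change. Txnrd1 (ENSRNOG00000009088, chromosome 7), the cytosolic thioredoxin reductase, had 281, 286 and 298 CPM in siHNRNPD 1, 2 and 3, against 289, 281 and 278 CPM in siNC 1, 2 and 3. Its log2 change of 0.030 had the narrowest interval of the 10 genes, -0.11 to 0.17 (edgeR adjusted p = 0.886). Srxn1 (ENSRNOG00000031167, chromosome 3), sulfiredoxin, which restores overoxidised peroxiredoxins, had 10.4, 10.2 and 11.7 CPM in siHNRNPD 1, 2 and 3, against 8.72, 8.02 and 9.30 CPM in siNC 1, 2 and 3. These rest on 365, 338 and 381 counts in siHNRNPD and 253, 250 and 336 counts in siNC. All siHNRNPD libraries lay above all siNC libraries, which was so in 1 of 10 members against 17.0% of all tested genes in either direction (8.42% with siHNRNPD above). The log2 change was 0.31, SE 0.11 and a 95% interval of 0.058 to 0.56, and it stayed above the threshold over all genes (edgeR adjusted p = 0.362, DESeq2 adjusted p = 0.410). Srxn1 ranked 706 of 12268 genes by p.

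**Figure D2:**
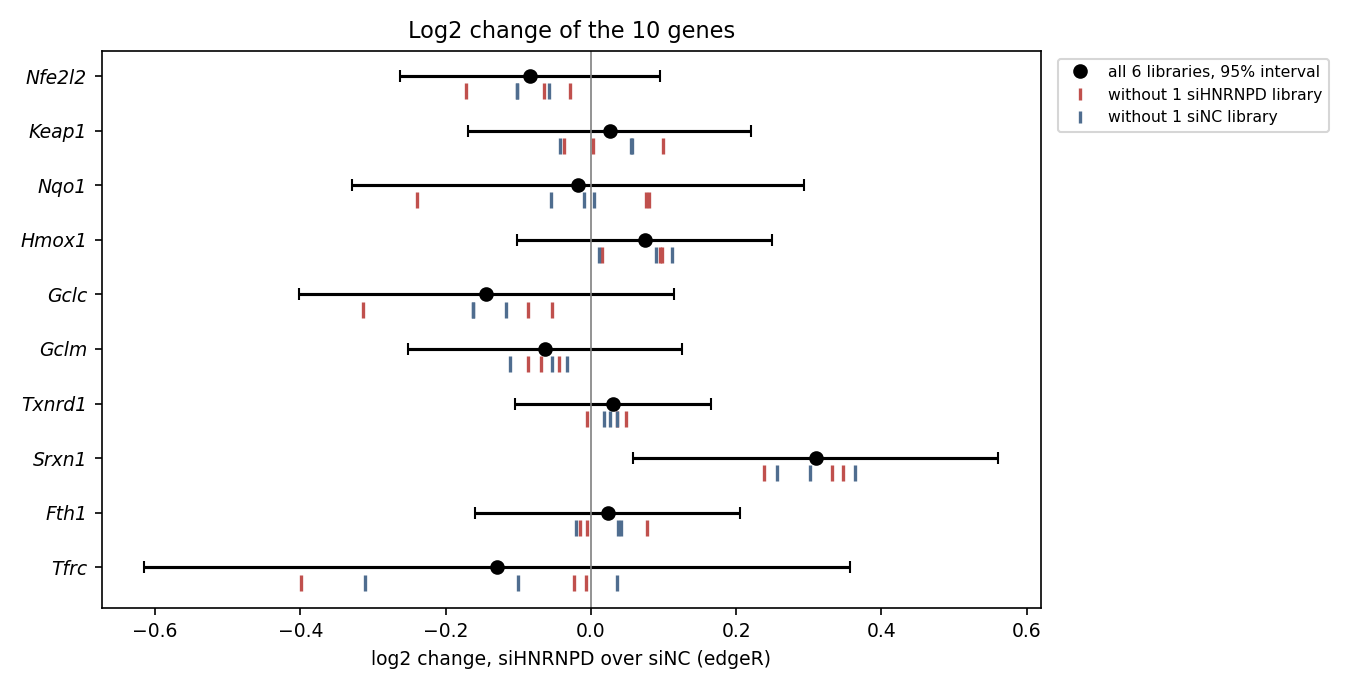
Log2 change of the 10 genes, siHNRNPD over siNC, by edgeR. Black points with bars are the fit of all 6 libraries with its 95% interval, and ticks below each are the fits without 1 siHNRNPD (red) or 1 siNC (blue) library. The interval of Srxn1 lies above 0, and the other 9 intervals span it.

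Iron storage and iron uptake are regulated in opposite directions by iron. Fth1 (ENSRNOG00000022619, chromosome 1), the ferritin heavy chain, had 6586, 5790 and 6406 CPM in siHNRNPD 1, 2 and 3, against 5886, 6316 and 6284 CPM in siNC 1, 2 and 3. It alone took 0.576% to 0.659% of all counts in siHNRNPD libraries and 0.589% to 0.634% in siNC libraries. The ranges overlapped, with a log2 change of 0.023 and an SE of 0.081 (edgeR adjusted p = 0.942). Ferritin genes have many near-identical copies in the genome, so reads may have been split between rows. Of the light chain rows, the abundant ones were Ftl1, with a log2 change of 0.076, and LOC100360087, described as a light chain copy, with 0.059 (edgeR adjusted p = 0.780 and 0.864). The less abundant LOC100362384, with 259 to 344 counts per library, had -0.155 with a 95% interval of -0.45 to 0.14 (edgeR adjusted p = 0.705). Ftl1l1 and LOC100359668, with at most 39 counts in any library, had -0.30 and 0.28 (edgeR adjusted p = 0.666 and 0.837).

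Tfrc (ENSRNOG00000001766, chromosome 11), the transferrin receptor that brings iron into the cell, had 75.5, 123 and 76.5 CPM in siHNRNPD 1, 2 and 3, against 124, 104 and 73.4 CPM in siNC 1, 2 and 3. Both groups spread widely and overlapped almost wholly, with siHNRNPD 2 and siNC 1 near the top and siNC 3 lowest. The log2 change was -0.13, SE 0.22 (edgeR adjusted p = 0.867). The log2 ratio of Tfrc to Fth1 counts was -6.45, -5.56 and -6.39 in siHNRNPD 1, 2 and 3, against -5.58, -5.92 and -6.42 in siNC 1, 2 and 3. Its group difference of -0.16 was smaller than the SD within either group, 0.50 and 0.42 (exact two-sided permutation test, p = 0.8, adjusted p = 0.8).

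The spread between replicates separated 3 members from the rest. Among the 9176 tested genes that averaged 5 CPM or more, the median SD of the log2 level was 0.10 within siHNRNPD and 0.10 within siNC. Tfrc had an SD of 0.40 within siHNRNPD and 0.38 within siNC, and 1.81% and 0.676% of those genes spread at least as much in siHNRNPD and siNC. Nqo1 had an SD of 0.32 within siHNRNPD and 0.051 within siNC, and Gclc had 0.25 and 0.064. At least as large a spread within siHNRNPD was found in 3.15% of genes for Nqo1 and 6.66% for Gclc. The other 7 members had SDs of 0.044 to 0.13 within siHNRNPD and 0.029 to 0.11 within siNC. Library siHNRNPD 3 carried the spread of Nqo1 and Gclc, and it was also the library lowest in interferon-stimulated genes. The part of that difference in these values was not tested.

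**Figure D3:**
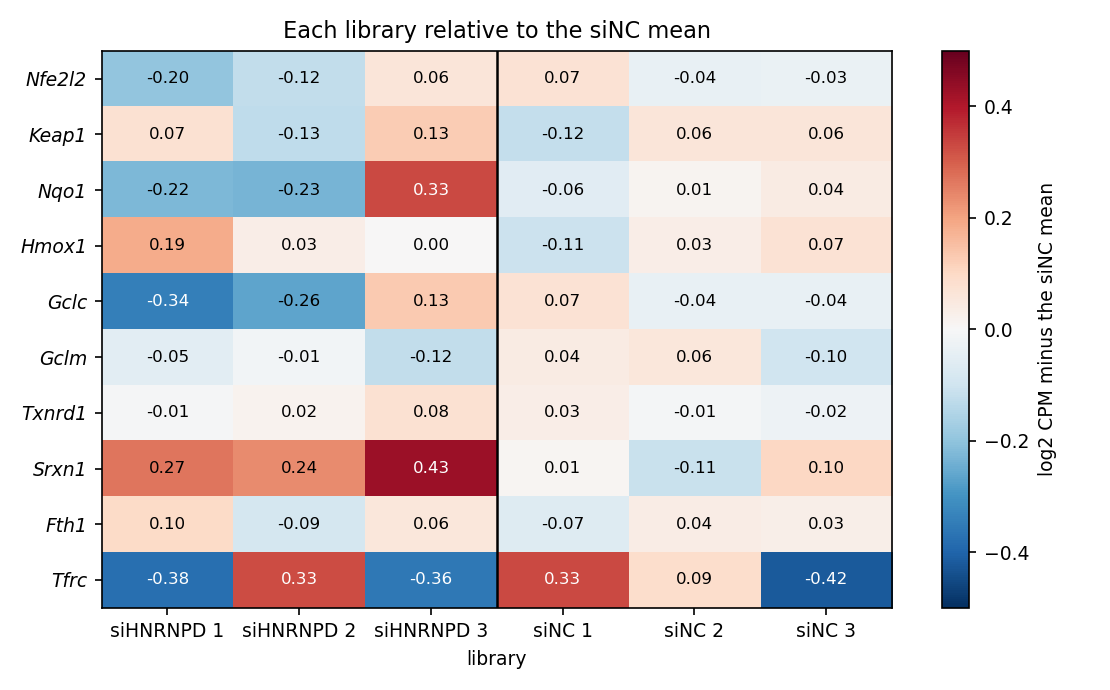
Log2 CPM of each gene in each library minus its siNC mean, with siHNRNPD libraries left of the line. Red is above and blue below the siNC mean. In Nqo1 and Gclc, siHNRNPD 1 and 2 are at -0.34 to -0.22 and siHNRNPD 3 is at 0.33 and 0.13.

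For Gclc, Nqo1 and Nfe2l2, the library whose omission moved the value most was siHNRNPD 3. Without it the log2 change was -0.31 for Gclc (95% interval -0.48 to -0.15), -0.24 for Nqo1 (-0.40 to -0.074) and -0.17 for Nfe2l2 (-0.33 to -0.014). None passed over all genes (edgeR adjusted p = 0.156, 0.289 and 0.437). At an unadjusted edgeR p under 0.05, that fit held these 3 members, against 1294 of 12444 tested genes. The library was picked from these same values, so the intervals are not a separate test of a decrease. With any other library left out, the intervals of these genes spanned 0. For Srxn1 the value without that library was 0.24, with an unadjusted edgeR p of 0.0786. The change in Tfrc was -0.40 without siHNRNPD 2 and 0.036 without siNC 1, so its sign rests on single libraries.

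Levels were compared between genes on the authors' FPKM scale, which divides by gene length. In the siHNRNPD libraries Fth1 came first at 6499 ± 499 FPKM, then Nqo1 at 735 ± 186 FPKM and Gclc at 129 ± 25.8 FPKM (SD, n = 3 each). Nfe2l2 at 74.8 ± 8.16 FPKM, Txnrd1 at 72.4 ± 3.31 FPKM and Hmox1 at 38.0 ± 2.48 FPKM stood in the middle. Tfrc at 16.5 ± 4.67 FPKM, Keap1 at 15.0 ± 1.59 FPKM, Srxn1 at 12.7 ± 1.15 FPKM and Gclm at 11.5 ± 0.25 FPKM came last. The library ranges of Nfe2l2 and Txnrd1, of Tfrc and Keap1, and of Keap1 and Srxn1 overlapped, so these neighbours were not separated. In the siNC libraries the first 8 genes stood in the same order, with Fth1 at 6321 ± 267 FPKM, and Tfrc and Keap1 overlapped. There Gclm (11.9 ± 0.53 FPKM) stood above Srxn1 (10.1 ± 0.90 FPKM), the reverse of their order in siHNRNPD. On this scale, ferritin heavy chain mRNA was thus the highest member in both groups. The catalytic subunit Gclc stood above its modifier Gclm in every library. The order rests on alignment to a rat build, and which species the reads came from was not tested. How far alignment differs between these genes was not tested either.

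The wider pathway was read from 6 lists of further genes, chosen with earlier results of these data known. Counting each gene once, 174 genes outside the 10 were tested, and edgeR called 0 of them. At an unadjusted p under 0.05 there were 13 higher and 11 lower, or 13.8% against 11.0% of all genes (5.84% higher and 5.20% lower), and the median log2 change was 0.020. In 18 genes the siHNRNPD libraries lay above and in 10 below all siNC libraries, together 16.1% against the 17.0% of all genes (8.42% above and 8.57% below). DESeq2 called 5 of the 167 that it gave an adjusted p, or 2.99% against the 1.41% of all its genes, and all 5 are named here.

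Among the proteins that control or partner NRF2, 17 of 24 tested genes had a positive log2 change, against 6342 of 12268 over all tested genes. The list median was 0.045. With 1 library left out it ran from 0.0147 (without siHNRNPD 3) to 0.0615 (without siHNRNPD 1). Maff, a small MAF partner of NRF2, had 65.4, 60.1 and 62.8 CPM in siHNRNPD against 48.3, 51.9 and 52.6 CPM in siNC. Its groups lay apart, with a log2 change of 0.30 (edgeR adjusted p = 0.183, DESeq2 adjusted p = 0.0513). Kpna2, a nuclear import receptor, had a log2 change of -0.18, Rxra, a nuclear receptor that binds NRF2, one of 0.31, and the related factor Nfe2l1 one of 0.16 (edgeR adjusted p = 0.368, 0.370 and 0.452). Named for their roles after their values were seen, Cul3, the ligase scaffold that works with KEAP1, had -0.13, Sqstm1, which sequesters KEAP1, had 0.15, and Bach1, a repressor of Hmox1, had 0.12 (edgeR adjusted p = 0.777, 0.520 and 0.858).

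Of 39 other tested NRF2 target genes, 20 were positive and 19 negative, with a median of 0.0016. At an unadjusted p under 0.05 there were 2 higher and 1 lower, or 7.69% of the list against 11.0% of all tested genes. Blvrb, biliverdin reductase B, had 237, 207 and 199 CPM in siHNRNPD against 159, 176 and 186 CPM in siNC. Ptgr1, a prostaglandin reductase, had 23.3, 22.4 and 27.8 CPM in siHNRNPD against 20.2, 19.9 and 19.3 CPM in siNC. In both genes the groups lay apart without passing over all genes, with log2 changes of 0.30 and 0.31 (edgeR adjusted p = 0.292 and 0.323). Ugdh, which makes UDP-glucuronate, had -0.25, and Akr7a2, an aldehyde reductase, had 0.19 (edgeR adjusted p = 0.367 and 0.510).

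Glutathione and thioredoxin enzymes had a median of -0.011 over 46 tested genes, 22 positive and 24 negative. The glutaredoxin Glrx had 434, 492 and 426 CPM in siHNRNPD against 604, 616 and 519 CPM in siNC, a log2 change of -0.36. Txnip, an inhibitor of thioredoxin, had 63.2, 63.5 and 44.4 CPM in siHNRNPD against 77.4, 74.9 and 76.4 CPM in siNC, a log2 change of -0.42. Both had groups apart and were called by DESeq2 (adjusted p = 0.0116 and 0.0479) but not by edgeR (adjusted p = 0.203 and 0.298). The peroxidase Gpx1 had a log2 change of 0.28 and the membrane-bound transferase Mgst1 one of -0.20 (edgeR adjusted p = 0.322 and 0.323).

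For iron and haem handling, 27 of 47 tested genes were positive, the median was 0.016, and 4 higher and 4 lower genes had an unadjusted p under 0.05, or 17.0% of the list against 11.0% of all tested genes. Slc11a1, a divalent metal transporter of phagosomes, had 156, 145 and 131 CPM in siHNRNPD against 175, 194 and 209 CPM in siNC. The ferroxidase ceruloplasmin (Cp) had 119, 137 and 123 CPM in siHNRNPD against 176, 165 and 147 CPM in siNC. Their log2 changes of -0.42 and -0.36 were called by DESeq2 (adjusted p = 0.00303 and 0.0117) and not by edgeR (adjusted p = 0.171 and 0.199). Blvrb, which is also on this list, and the kinase Cdc42bpa had groups apart, with log2 changes of 0.30 and 0.31 (edgeR adjusted p = 0.292 and 0.341). The iron regulatory proteins themselves, named for their role, had log2 changes of -0.030 (Aco1) and -0.17 (Ireb2), with edgeR adjusted p of 0.897 and 0.774.

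Ferroptosis genes, which govern death by iron-dependent lipid peroxidation, had a median of 0.062 over 20 tested genes, and 3 genes, all higher, had an unadjusted p under 0.05, or 15.0% of the list against the same 11.0%. Fdft1, squalene synthase, had 220, 219 and 197 CPM in siHNRNPD against 163, 165 and 159 CPM in siNC. Its groups lay apart, with a log2 change of 0.38 called by DESeq2 (adjusted p = 5.26e-04) and not by edgeR (adjusted p = 0.0900). Gch1, the first enzyme of tetrahydrobiopterin synthesis, had a log2 change of 0.42 and the cystine transporter Slc7a11 one of 0.15 (edgeR adjusted p = 0.429 and 0.514). The list of NADPH oxidases, enzymes that produce superoxide, also holds partner proteins such as Rac1. Of its 8 tested genes, 1 higher and 1 lower had an unadjusted p under 0.05, or 25.0% of the list against the same 11.0%. Rac1 had a log2 change of 0.24 and Cybb one of -0.96 (edgeR adjusted p = 0.244 and 0.261). Cybb had only 0.657 to 0.796 CPM in siHNRNPD and 1.02 to 1.73 CPM in siNC. Nox1 and Nox4 stayed under 1 CPM in every library.

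**Figure D4:**
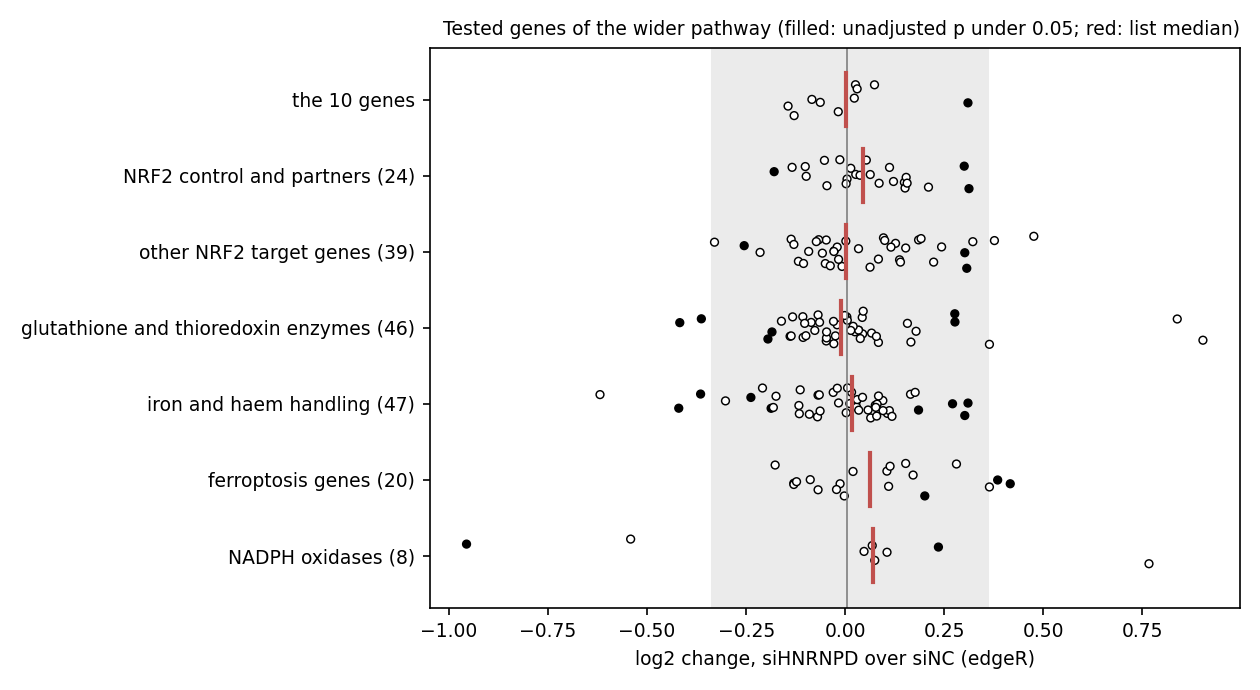
Log2 change, siHNRNPD over siNC by edgeR, of every tested gene of the 10 members and the 6 pathway lists, with the number tested in brackets. Red lines are list medians, filled points have an unadjusted p under 0.05, and the grey band holds the middle 90% of all 12268 tested genes, -0.34 to 0.36. The medians lie between -0.011 and 0.071.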

How the data were processed

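The deposited tables hold read counts per gene (not normalized, whole numbers, 18718 genes) and FPKM computed by the authors (18628 genes). Reads were aligned with TopHat2 and the build mRatBN7.2 is named, per the submitters' processing notes. How reads were counted (tool, strand, gene models) is not given in the sources used here, so overlapping genes cannot be told apart. Columns were matched to samples by siRNA name and replicate number. The main test was run on the deposited counts with edgeR 4.0.16 under R 4.3.3 (scaling by TMM, filterByExpr, quasi-likelihood test with group as the only term, Benjamini-Hochberg adjustment over 12268 genes). Intervals come from that fit. Alternatives were DESeq2 1.42.0, other scalings, no filter, a block for the replicate number, each library left out in turn, and limma 3.58.1 on log2(FPKM + 1) or log2(FPKM + 0.1), a scale that understates changes of low genes. The fits were also run on simulated counts with known changes, and the outcome is not reported here. Members and lists were chosen with earlier results of these data known. Of 288 list entries outside the members, 264 matched a row, and 5 names, Hnrnpd (listed as Hnrpd) included, matched through synonyms. Genes named from each list were the 4 with the smallest p, or the most abundant markers, and others are named with the reason. All library pairs differed by more than sampling noise. By mean chi-square per gene, siHNRNPD 2 was nearer to siNC 2 (15.6) and siNC 1 (19.8) than to siHNRNPD 1 (26) or 3 (30.4). Library siHNRNPD 1 was nearest to siNC 3 (21.6). Each of the remaining libraries was nearest to a library of its own group. Some marker genes without a matching row were not analysed here. The values of 1 listed gene that the naming rule selected are not reported here, and it is included in the counts and medians of its list.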

Additional observations from a re-analysis of the deposited data

How the results depend on the processing

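Of the 10 genes, 0 were called under any of the 14 alternatives. Nfe2l2, Hmox1, Gclc, Gclm and Srxn1 kept their sign in all of them. Leaving out 1 library gave log2 changes of -0.042 to 0.099 for Keap1, -0.24 to 0.080 for Nqo1, -0.0051 to 0.049 for Txnrd1, -0.020 to 0.077 for Fth1 and -0.40 to 0.036 for Tfrc, so their signs turned. The log2 ratio difference ran from -0.45 to 0.041 for Tfrc to Fth1 and from -0.0020 to 0.27 for Gclm to Gclc. Srxn1 ranged from 0.24 to 0.36 with adjusted p from 0.253 to 0.860. Without siNC 2, 0 of the 10 members were at an unadjusted edgeR p under 0.05, against 724 of 12449 tested genes. Without siHNRNPD 3 there were 3 such members, against 1294 of 12444 tested genes.

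The count of genes called over the whole table was 10. It was 162 with DESeq2, 147 with no filter, 6 with upper-quartile scaling (3 higher and 3 lower, against 3 and 7), 5 on log2(FPKM + 0.1) and 0 on log2(FPKM + 1) with or without the minimum (1157 and 1604 genes at an unadjusted p under 0.05), and 0 to 14 with 1 library left out. DESeq2 and no filter each called 2 genes of the glutathione and thioredoxin list (Glrx and Txnip), 2 of the iron and haem list (Slc11a1 and Cp) and 1 ferroptosis gene (Fdft1). With DESeq2 these were 4.44%, 4.44% and 5.0% of the 3 lists, against 1.41% of all its genes. Over the whole table, no filter called 147 of 18718 genes. The Hnrnpd log2 change was -0.65 on log2(FPKM + 1), with adjusted p of 0.0508 with the minimum and 0.137 without it. Leaving out 1 library gave -0.74 to -0.63 with adjusted p from 0.0458 to 0.319, and the call remained without siHNRNPD 2. The causes were not tested.

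Replicate numbers showed no clear pairing: deviations of libraries 1, 2 and 3 of both groups correlated at -0.262, 0.137 and 0.104. Libraries of unlike number correlated at -0.332 to 0.232. Whether libraries of the same number were handled together was not tested. With the replicate number as a block, 0 genes were called (1062 at an unadjusted p under 0.05) and Hnrnpd had -0.67 (adjusted p = 0.0873), and no member was called. The exact sign test of the 3 paired ratio differences gave p = 1.0 for each ratio. With 3 pairs that test cannot give a p under 0.25, so it cannot decide whether the ratios differed. What the depth and spread leave unresolved differs by gene: the SE on the log2 scale ran from 0.060 for Txnrd1 to 0.22 for Tfrc.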
